A study of Mus musculus with 12 samples.

Results

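The 35 genes described here encode the autophagy machinery of the mouse, from the kinase that starts the process to the receptors that choose its cargo. They were taken by symbol from the 14219 genes in the deposited table of marked and unmarked day 60 cells, and all 35 were found there. The RNA was that of sorted bone marrow plasma cells of C57BL/6 reporter mice, genotype BLTcre.mcl1fl/+. Tamoxifen had been given to switch on a human CD4 reporter. Cells with the reporter (human CD4+, called marked) and without it (human CD4-, called unmarked) were sorted after 60 or after 270 days, with 3 libraries in each of the 4 groups. All groups share the genotype, with 1 floxed copy of Mcl1, and the tamoxifen treatment. The sources used here do not expand BLTcre, do not say in which cells the Cre acts and give no age, dose or sort gate. A marked and an unmarked library of the same day and replicate carry 1 specimen number, so that the 12 libraries come from 6 specimens.

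Autophagy encloses cytoplasm, damaged organelles or protein aggregates in a double membrane, the autophagosome, and delivers them to the lysosome. The Ulk1 kinase complex starts the process, a class III phosphatidylinositol 3-kinase marks the membrane, Atg9a and the Atg2 proteins supply lipid to it, and linked conjugation systems attach proteins of the LC3 and GABARAP family to it, where cargo receptors bind. In plasma cells, which are long-lived antibody secreting cells, autophagy is known to limit the stress of the endoplasmic reticulum and to help the cells persist in the marrow. Many of its steps are regulated on the proteins, so that RNA levels do not measure autophagic flux.

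The libraries held 7449468 to 15943547 reads, and all 35 genes passed the filter on low counts that left 12704 genes for testing. All 8 plasma cell markers examined, Jchain and Prdm1 among them, were found in each group. Reads fell on 11022 and 11301 genes in marked libraries 2 and 3 of day 270, the lowest numbers of the 12. In the others they fell on up to 13506 genes. Jchain took 588781 of the 7449468 reads of marked library 2 of day 270, its lowest level in the 12 libraries. This was 79040 CPM (reads scaled to a common library total), against 154100 to 312700 CPM in the others. Most of the summed level of the 8 plasma cell markers is Jchain itself. That sum was lowest in the same library, 89990 CPM against 168500 to 325800 CPM in the others, and is no separate result. Mcl1, the floxed gene, stood at 483 to 539 CPM in unmarked and 342 to 509 CPM in marked cells at day 60, ranges that overlapped. At day 270 it stood at 527 to 589.6 against 384 to 513 CPM, ranges that did not overlap. The summed level of 8 markers of dividing cells was lower in marked cells (22.2 to 46.3 against 148 to 191 CPM at day 60, 48.1 to 76.2 against 129 to 162 CPM at day 270). That of 8 B cell markers was lower too (1294 to 1407 against 1732 to 2050 CPM, and 1126 to 1422 against 1951 to 2059 CPM). Erythroid markers, 7 of 9 in the table and none at 0 in a group, ran the other way (107 to 346 against 37.3 to 62.9 CPM, and 179.7 to 788 against 28.5 to 166 CPM). Neutrophil markers (9 of 9) summed to 1.70 to 807 CPM in marked and 23.6 to 292 CPM in unmarked cells at day 60, and to 85.3 to 559 and 39.4 to 221 CPM at day 270. Markers of monocytes and macrophages (9 of 9, with Marco at 0 in unmarked day 60 and marked day 270 cells) summed to 92.6 to 622 CPM over the 12 libraries, those of T and NK cells (4 of 8 in the table) to at most 9.13 CPM and those of megakaryocytes (5 of 5) to at most 59.6 CPM. The part of these differences in the results on autophagy genes was not tested. In bulk RNA, fewer cells of a type and less RNA per cell cannot be told apart.

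Levels can be compared between genes only per length, so each was divided by the kilobases of all its annotated exons. This length spans every annotated form of a gene and can exceed that of its RNA in these cells, so the order is approximate. Map1lc3b had 190.9 CPM over 7.52 kb and Map1lc3a 36 CPM over 1.18 kb. On this scale Gabarap, a member of the GABARAP family, had the highest mean over the 12 libraries, 277 CPM per kb, above 98.9% of 14165 genes. Sqstm1, which encodes the cargo receptor p62, followed with 167 CPM per kb, and Atg5, part of the ligase complex for LC3, with 57.8 CPM per kb. Wipi1 (34.6), Atg13 (31.4), Map1lc3a (30.5), Fundc1 (27.4), Map1lc3b (25.4) and Bnip3l (24.6 CPM per kb) lay close together, and the ranges of neighbours in this order overlapped over the libraries. Genes of several roles stood lower, among them Atg2a at 4.19, Bnip3 at 3.81, Atg2b at 1.89, Rb1cc1 at 1.86 and Atg16l1 at 1.535 CPM per kb. Optn, for the cargo receptor optineurin, was lowest, 0.206 CPM per kb, with 0 to 24 reads per library. The 5 genes of the LC3 and GABARAP family spanned 14.1 (Gabarapl2) to 277 CPM per kb.

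**Figure D1:**
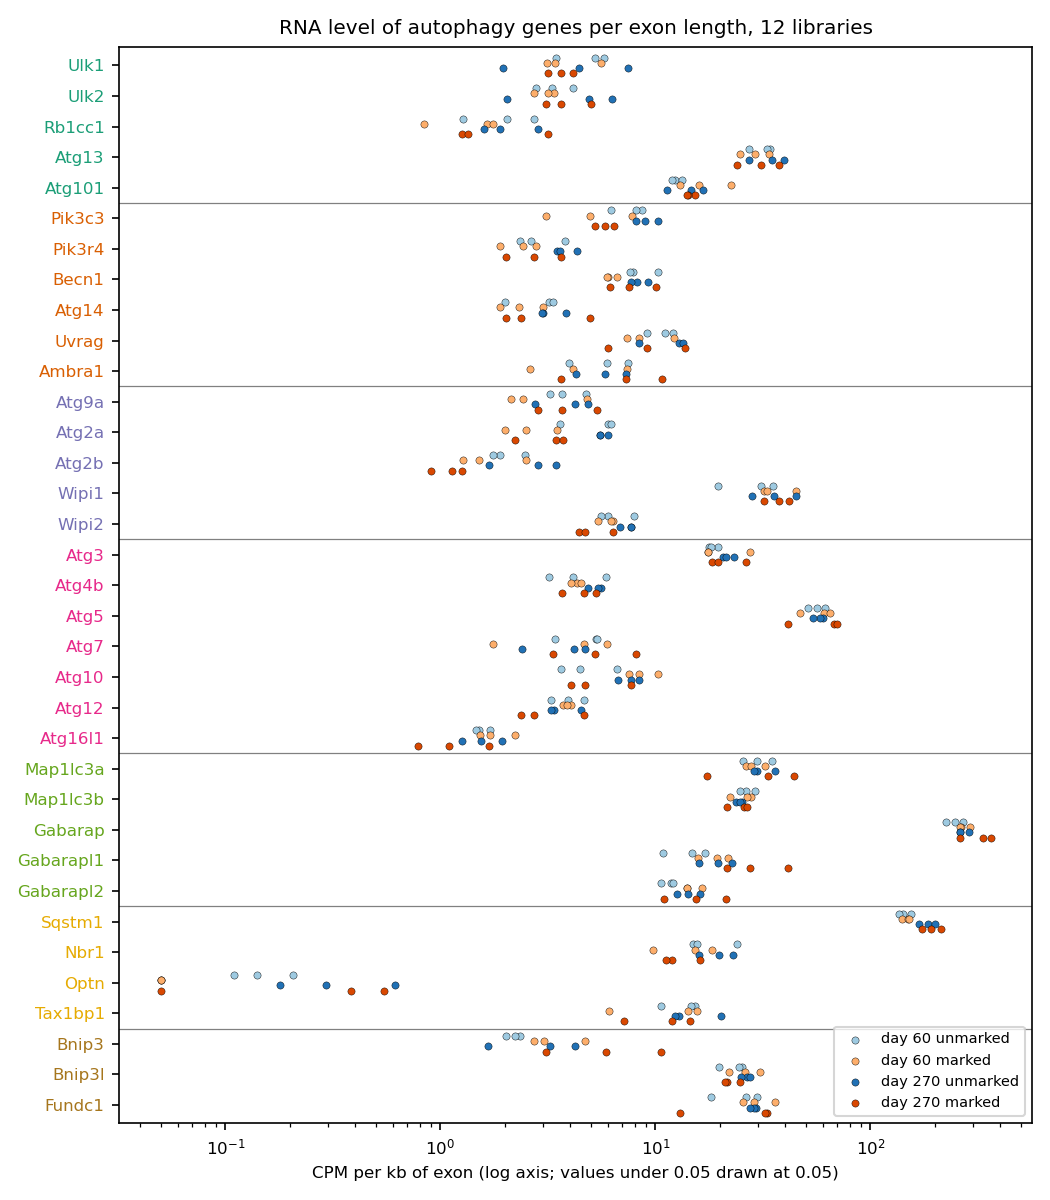
Level of each autophagy gene in each of the 12 libraries, in CPM per kb of exon on a log axis, with genes in blocks by role and coloured points for the 4 groups. Gabarap and Sqstm1 lie highest, Optn lowest (libraries at 0 drawn at 0.05), and for most genes the points of the 4 groups overlap.

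Marked and unmarked cells of the same specimens were compared first, over both days and at each day, on log2(CPM + 0.5). Over both days 1 of the 35 genes passed the test, Atg2a, which was lower in marked cells. The share of all 12704 genes that passed was 1.84% (limma, Benjamini-Hochberg adjusted p under 0.05). Without adjustment 2 of the 35 were higher and 5 lower at p under 0.05, 20% of them against 16.9% of all genes. The median log2 difference of the 35 was -0.11, with 12 positive, beside -0.18 and 29.6% positive over all genes. These signs depend on the scaling: with TMM normalisation, which scales to the bulk of the genes and not to total reads, the median of all genes moved from -0.18 to -0.065 and that of the 35 from -0.11 to 0.016, with 20 positive. Atg2a was the 1 member called there, with 2.35% of all genes. At day 60, 0 of the 35 passed in limma against 0.189% of all genes, and 2 had an unadjusted p under 0.05, 5.71% of them against 6.45% of all genes. edgeR, DESeq2 and limma-voom called 0 as well at that day. The authors' deposited table for day 60 lists 0 of the 35 at an FDR under 0.05, where it lists 28 genes, 0.197% of the table. The lowest FDR of the 35 there is 0.393, for Atg2a. At day 270, 0 of the 35 passed in limma against 0.48% of all genes, and 5 had an unadjusted p under 0.05, 14.3% of them against 14% of all genes. There edgeR and limma-voom called 0, and DESeq2 called 1, Atg2b, with 2.02% of all genes. The shares of all genes depend on single libraries: leaving out 1 library took the both-day share to between 0.726% (without unmarked library 1 of day 270) and 3.54% (without marked library 1 of day 270), and the day 270 share to between 0.0374% and 3.64% (without the same libraries). The labels do not say whether the specimens are separate animals, so p-values measure only the spread between these samples, which may in part be technical.

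**Figure D2:**
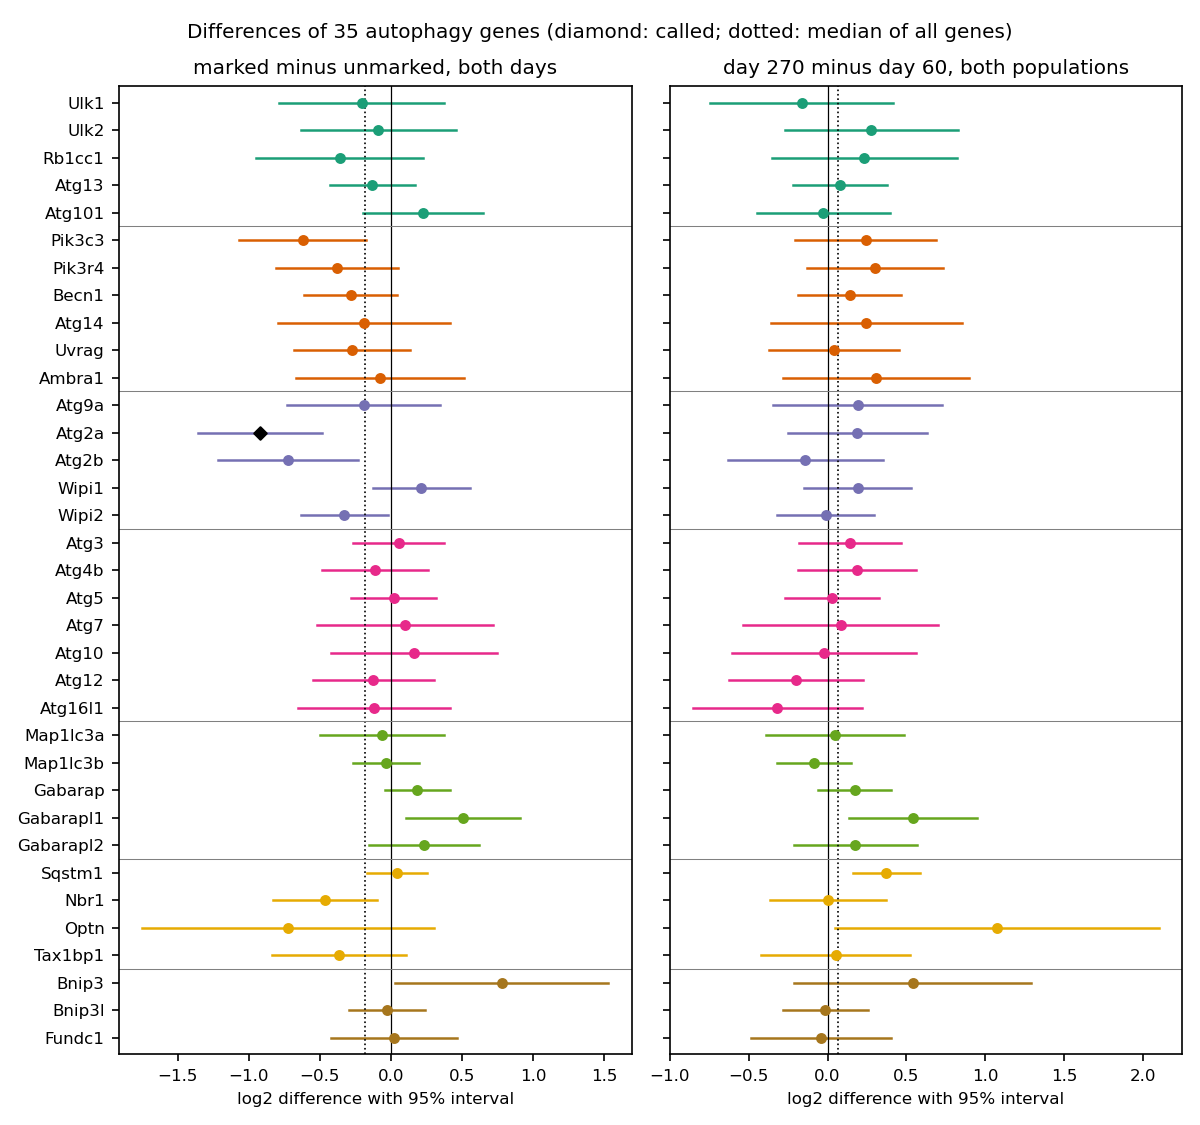
Log2 difference of each autophagy gene with its 95% interval from limma, marked minus unmarked over both days (left) and day 270 minus day 60 over both populations (right), in blocks by role. The diamond marks Atg2a, the gene that passed the test, and the dotted lines mark the medians of all genes, -0.18 and 0.066. Optn on the right was kept by the filter only through day 270 and is drawn as a description.

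Counted by the order of the libraries, 3 of the 35 had every marked library above every unmarked one at day 60 (Atg10, Gabarapl2 and Bnip3), where 4.46% of all genes did, and 3 had every marked library below (Becn1, Atg2a and Optn), where 11.3% did. At day 270, 0 lay wholly above (3.28% of all genes) and 5 wholly below (Pik3c3, Atg2a, Atg2b, Wipi2 and Bnip3l, against 12%). These orders and shares are those on the scaling by total reads. Divided by the TMM factors, Pik3c3 and Bnip3l in marked library 2 of day 270 (factor 0.828) came above unmarked library 1 (1.11). Within specimens, Atg2a and Pik3c3 were lower in the marked library in 6 of 6 pairs, as 7.64% of all genes were. In the other direction 0 were higher in all 6 pairs, where 1.85% of all genes were, and Gabarapl1 and Bnip3 were higher in 5 of 6. Atg2a alone stood below in both days' counts.

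The initiation complex is the entry point. Its kinase genes Ulk1 and Ulk2, the scaffold gene Rb1cc1 (FIP200) and the adaptor genes Atg13 and Atg101 had 0 of 5 calls over both days, with 4 negative differences and 1 positive and a median of -0.13, which was between -0.023 and 0.0088 under TMM and the count models. Ulk1 stood at 37.5, 22.4 and 33.9 CPM in unmarked and 20.2, 22.01 and 36.4 CPM in marked cells at day 60, and 28.6, 48.5 and 12.7 CPM in unmarked and 23.7, 20.5 and 26.7 CPM in marked cells at day 270. The widest spread lay in the unmarked cells of day 270, which held the highest and the lowest of the 12 values, and all groups overlapped. Its difference was -0.21 ± 0.28 (SE, 95% interval -0.79 to 0.38, adjusted p = 0.743). Mean levels of Atg13 were 138 and 127 CPM (unmarked, marked) at day 60 and 148 and 135 CPM at day 270, and Atg101 was the gene with the positive difference, 0.23 (95% interval -0.20 to 0.65).

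The class III PI3-kinase complex makes the phosphatidylinositol 3-phosphate that recruits later proteins. All 6 of its genes had negative differences over both days, 5 of 6 with TMM and the count models, where Ambra1 turned positive. Of the 6, 0 passed, and the median was -0.28 beside the -0.18 of all genes, or -0.15 to -0.14 with TMM and the count models. Pik3c3, the catalytic subunit Vps34, stood at 38.5, 27.7 and 36.4 CPM in unmarked and 22.3, 13.8 and 34.6 CPM in marked cells at day 60, and 36.1, 46.1 and 39.8 CPM in unmarked and 26.03, 28.6 and 23.5 CPM in marked cells at day 270. Each marked library was below the unmarked one of its specimen, while across specimens the day 60 groups overlapped and the day 270 groups did not. That separation holds on the scaling by total reads. Divided by the TMM factors, marked library 2 of day 270 (0.828) came above unmarked library 1 (1.11). Over both days the difference of Pik3c3 in limma on total reads was -0.62 ± 0.21 (SE, 95% interval -1.07 to -0.17, adjusted p = 0.161). Becn1, the scaffold Beclin 1, stood at 55.8, 53.8 and 72.5 CPM in unmarked and 42.5, 46.9 and 41.9 CPM in marked cells at day 60, and 58.1, 54.2 and 64.9 CPM in unmarked and 70.8, 43.2 and 53.02 CPM in marked cells at day 270. At day 60 its marked libraries were all below the unmarked ones, with a difference of -0.46 ± 0.22 (SE, 95% interval -0.92 to 0.0051, adjusted p = 0.784), and at day 270 the groups overlapped, with -0.11 (95% interval -0.57 to 0.35). Exons of Cntd1 on the opposite strand cover 43.9% of the Becn1 exon bases, and the strand of counting is not given in the sources used here, so reads of these genes cannot be told apart. Cntd1 itself is not among the 14219 genes listed. Pik3r4, the regulatory subunit Vps15, differed by -0.38, Uvrag, a subunit of another form of the complex, by -0.28, Atg14, which directs the complex to autophagy, by -0.19 and Ambra1, a Beclin 1 partner, by -0.080, with intervals that included 0. An antisense gene covers 17.6% of the Uvrag exon bases.

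The genes that supply membrane or read the phosphoinositide held the 1 call. Atg2a and Atg2b encode large proteins that move lipid from the endoplasmic reticulum into the growing membrane. Atg2a (chromosome 19, 6241668 to 6262335 of GRCm38, plus strand) stood at 46.4, 27.8 and 47.6 CPM in unmarked and 15.3, 19.3 and 26.9 CPM in marked cells at day 60, and 42.5, 46.1 and 42.5 CPM in unmarked and 26.7, 28.5 and 17.1 CPM in marked cells at day 270. Every marked library was below every unmarked library of its day. Across days, 1 marked library of day 270 (28.5 CPM) lay above the lowest unmarked library of day 60 (27.8 CPM). Group means were 20.5 ± 5.90 against 40.6 ± 11.1 CPM at day 60 and 24.1 ± 6.11 against 43.7 ± 2.06 CPM at day 270 (SD, n = 3). Over both days Atg2a fell by 0.92 on the log2 scale, with an SE of 0.21, a 95% interval of -1.36 to -0.48 and a limma adjusted p of 0.028. The sizes at the 2 days were -0.97 (adjusted p = 0.374) and -0.88 (adjusted p = 0.206), and the difference between them was 0.086 (95% interval -0.80 to 0.97). The call was lost in edgeR's quasi-likelihood test (adjusted p = 0.0643) and in 7 of the 12 fits that left out 1 library. These were the fits without unmarked library 1 or 3 of day 60 (adjusted p = 0.0933 and 0.0966), without marked library 1 or 2 of day 60 (0.0782 and 0.0737), and without unmarked library 1, 2 or 3 of day 270 (0.0867, 0.0919 and 0.062). Without marked libraries 2 and 3 of day 270 together, a fit chosen after seeing the data, it was -0.83 (adjusted p = 0.0836). There 1 library of that group is left and is assumed to vary like the others. The direction held in each. Among replicates 2 and 3 every unmarked library has a lower library number in the labels than every marked one, and there number and marking cannot be told apart. In replicate 1 the unmarked library also has the lower number of each pair (7 and 8 at day 60, 5 and 6 at day 270). Atg2a was lower in marked cells in both of these pairs (15.3 against 46.4 CPM, and 26.7 against 42.5 CPM). The part of library number in its difference was not tested.

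Since Atg2a was the gene that passed, the RefSeq window from 250 bases before to 50 bases after its start is shown, on GRCm38.p6 at chr19:6241418-6241717, plus strand. Capitals mark CCAAT, the box bound by the factor NF-Y, or its reverse complement ATTGG. It holds 3 such matches, all before the start, and 63.3% G and C.
Atg2a promoter: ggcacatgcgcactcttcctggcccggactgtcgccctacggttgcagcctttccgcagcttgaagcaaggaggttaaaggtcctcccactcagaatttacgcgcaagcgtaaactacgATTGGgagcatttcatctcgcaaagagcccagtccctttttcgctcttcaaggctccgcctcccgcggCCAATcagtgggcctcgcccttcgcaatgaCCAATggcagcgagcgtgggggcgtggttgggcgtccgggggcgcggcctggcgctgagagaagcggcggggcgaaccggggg
Of all 32851 RefSeq promoter windows of this length, 37.4% hold CCAAT on either strand, and 7 of the 28 autophagy genes with a window do.

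Atg2b, the paralog of Atg2a, stood at 33.2, 25.5 and 23.7 CPM in unmarked and 17.2, 20.3 and 33.6 CPM in marked cells at day 60, and 38.4, 46.6 and 22.6 CPM in unmarked and 15.3, 12.2 and 16.99 CPM in marked cells at day 270. At day 270 all marked libraries were below all unmarked ones, and at day 60 the groups overlapped. Its difference at day 270 was -1.20 ± 0.33 (SE, 95% interval -1.89 to -0.50, adjusted p = 0.122) in limma, and DESeq2 and a limma fit with library weights called it (adjusted p = 0.0201 and 0.0449), with 2.02% and 1.02% of all genes called. Without marked libraries 2 and 3 it was -1.14 (adjusted p = 0.5), and over all alternatives the adjusted p ran from 0.0201 to 0.5. At day 60 it was -0.25 (95% interval -0.95 to 0.44), and the difference between days was -0.94 (95% interval -1.93 to 0.039, adjusted p = 1), so a change of the contrast with time was not shown. Wipi2, a reader of phosphatidylinositol 3-phosphate that recruits Atg16l1, stood at 63.5, 58.6 and 84.03 CPM in unmarked and 56.9, 66.7 and 65.2 CPM in marked cells at day 60, and 81.6, 81.5 and 72.4 CPM in unmarked and 66.99, 46.3 and 49.6 CPM in marked cells at day 270. It was lower in all marked libraries at day 270, with -0.54 ± 0.21 (SE, 95% interval -0.98 to -0.11, adjusted p = 0.257), and not separated at day 60. Wipi1, its paralog, had group means of 126 and 161 CPM at day 60 and 160.1 and 163 CPM at day 270, and Atg9a, a membrane protein of small vesicles that seed the autophagosome, differed by -0.19 over both days (95% interval -0.73 to 0.35), with 31.8% of its exon bases shared with Gm29253 on the same strand. Of these 5 genes 1 passed and 3 had an unadjusted p under 0.05, all lower. Of all 12704 genes 1.84% and 16.9% did in either direction, with 191 and 1805 genes lower. Their median was -0.33 (4 negative) beside the -0.18 of all genes, and -0.20 to -0.19 under TMM and the count models, with 3 negative in DESeq2. The 95% interval of Wipi1, -0.13 to 0.55, included 0.

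**Figure D3:**
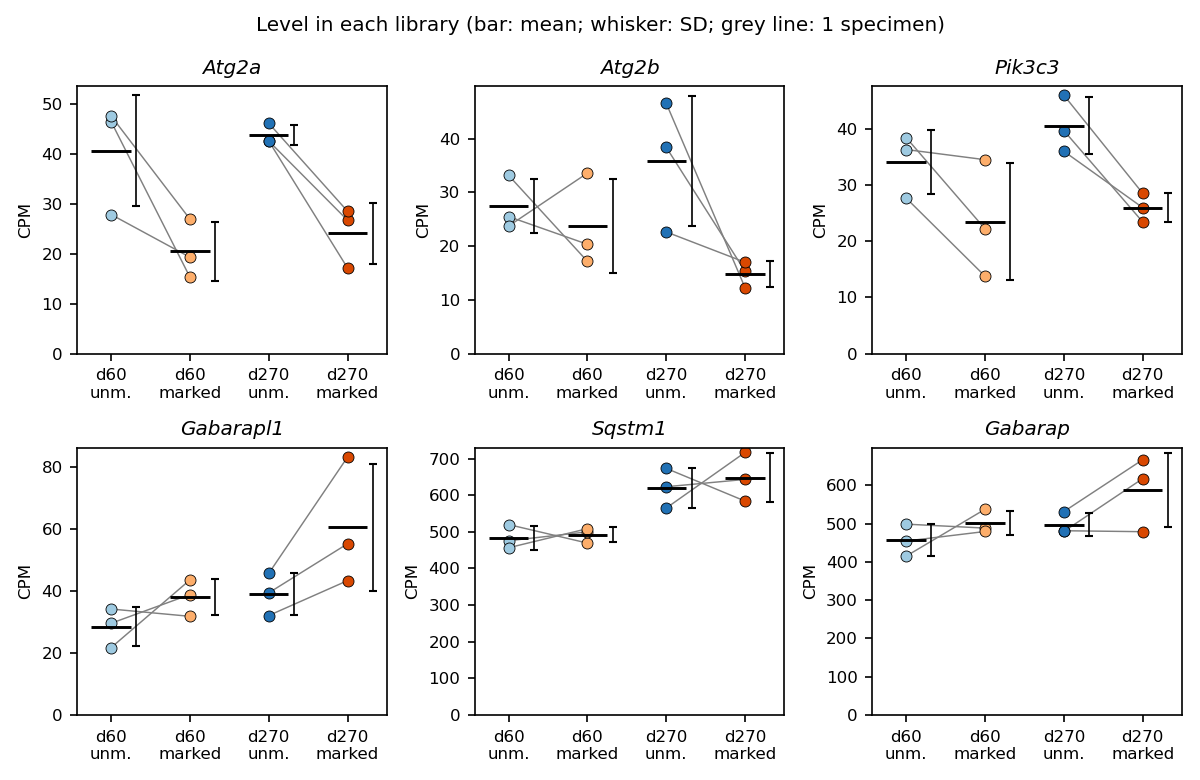
CPM in each library for 6 autophagy genes, with a bar for the mean and a whisker for the SD of 3 libraries, and grey lines joining the marked and unmarked library of a specimen. The lines for Atg2a and Pik3c3 all go down from unmarked to marked, those for Gabarapl1 go up in 5 of 6 specimens, and Sqstm1 is higher at day 270 in both populations.

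The conjugation enzymes attach LC3 and GABARAP proteins to lipid. Atg7 (the activating enzyme), Atg3 and Atg10 (conjugating enzymes), Atg4b (the protease that prepares and releases LC3), and Atg5, Atg12 and Atg16l1 (the complex that acts as the ligase) had 0 of 7 calls over both days, with 4 positive and 3 negative differences (7 positive under TMM and the count models) and a median of 0.019, which was 0.15 to 0.17 under those alternatives. They called 0 of 7 as well. Atg5 stood at 133, 120.2 and 145 CPM in unmarked and 143, 110.4 and 152 CPM in marked cells at day 60, and 142, 137 and 127 CPM in unmarked and 159, 97.7 and 164 CPM in marked cells at day 270. Its difference was 0.019 ± 0.14 (SE, 95% interval -0.28 to 0.32, adjusted p = 0.958), and the groups overlapped on both days. Atg7 stood at 36.8, 37.2 and 23.8 CPM in unmarked and 12.2, 32.4 and 41.4 CPM in marked cells at day 60, and 29.3, 32.8 and 16.6 CPM in unmarked and 23.2, 36.4 and 56.5 CPM in marked cells at day 270, and differed by 0.098 ± 0.29 (SE, 95% interval -0.52 to 0.72, adjusted p = 0.897). Its lowest and highest values, 12.2 and 56.5 CPM, were both in marked libraries. Atg10 stood at 7.64, 11.4 and 6.26 CPM in unmarked and 14.5, 17.6 and 12.96 CPM in marked cells at day 60, and 11.5, 13.3 and 14.5 CPM in unmarked and 13.2, 6.98 and 8.12 CPM in marked cells at day 270. All marked libraries were above the unmarked at day 60, with a difference of 0.83 ± 0.39 (SE, 95% interval 0.00039 to 1.65, adjusted p = 0.774), whereas at day 270 the mean was lower in marked cells (-0.50) and the groups overlapped. The change of the contrast between days was -1.32 ± 0.56 (SE, 95% interval -2.49 to -0.16, adjusted p = 1), the 1 member with an unadjusted p under 0.05 for it. In that test limma called 0 of 35 members and 0% of all genes, of which 3.05% had an unadjusted p under 0.05, and edgeR, DESeq2 and limma-voom also called 0 members. Group means of Atg3 lay between 58.4 and 68.5 CPM, those of Atg4b between 35.5 and 43.8 CPM, those of Atg12 between 25.1 and 30.5 CPM and those of Atg16l1 between 11.5 and 17.5 CPM.

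The LC3 and GABARAP proteins coat the autophagosome and bind the receptors. Over both days 3 of the 5 genes had positive and 2 negative differences (median 0.18), and 5 of 5 were positive under TMM and the count models, with medians of 0.31 to 0.32. Limma called 0 of 5 under either scaling, while DESeq2 called Gabarap and Gabarapl1, and limma-voom called Gabarap (adjusted p = 0.00719, 0.0287 and 0.0474), where they called 4.28% and 2.46% of all genes. Map1lc3b, the LC3 most often used as an autophagosome marker, stood at 199, 219 and 186 CPM in unmarked and 209.7, 166 and 201 CPM in marked cells at day 60, and 190.2, 178 and 186 CPM in unmarked and 195, 162 and 199.7 CPM in marked cells at day 270. It differed by -0.034 ± 0.11 (SE, 95% interval -0.27 to 0.20, adjusted p = 0.905) and all groups overlapped. Gabarapl1 stood at 34.2, 29.6 and 21.8 CPM in unmarked and 31.9, 38.9 and 43.6 CPM in marked cells at day 60, and 32.1, 39.5 and 45.7 CPM in unmarked and 43.4, 55.3 and 83.3 CPM in marked cells at day 270. It was lowest in unmarked day 60 cells and highest in marked day 270 cells, with neighbouring groups overlapping. Its differences were 0.51 ± 0.19 (SE, 95% interval 0.10 to 0.91, adjusted p = 0.199) for marking over both days and 0.54 ± 0.19 (SE, 95% interval 0.14 to 0.95, adjusted p = 0.386) for day 270 against day 60. Exons of the non-coding gene 1700101I11Rik on the opposite strand, which is not among the 14219 genes listed, cover 28.3% of the Gabarapl1 exon bases. Gabarapl2 stood at 27.5, 28.1 and 24.6 CPM in unmarked and 38.3, 32.6 and 32.5 CPM in marked cells at day 60, and 37.4, 29.4 and 32.9 CPM in unmarked and 36.1, 25.4 and 49.2 CPM in marked cells at day 270, and its marked libraries were all above the unmarked ones at day 60, with 0.36 ± 0.26 (SE, 95% interval -0.19 to 0.91, adjusted p = 0.923). Group means of Gabarap were 456 ± 41.8 and 502 ± 31.3 CPM (unmarked, marked) at day 60 and 497 ± 29.4 and 588 ± 97.5 CPM at day 270 (SD, n = 3), and those of Map1lc3a lay between 34.2 and 37.3 CPM.

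Soluble cargo receptors link ubiquitinated cargo to LC3. Of the 4 genes 0 passed for marking, 3 had negative differences and the median was -0.42, which was -0.29 to -0.26 under TMM and the count models. Nbr1, a partner of p62, had means of 125 ± 33.9 and 99.03 ± 29.96 CPM (unmarked, marked) at day 60 and 134 ± 24.2 and 89.6 ± 18.1 CPM at day 270 (SD, n = 3), and differed by -0.46 ± 0.17 (SE, 95% interval -0.83 to -0.098, adjusted p = 0.196). Tax1bp1, another ubiquitin-binding receptor, differed by -0.37 (95% interval -0.84 to 0.11). Optn stood at 0.527, 0.773 and 0.413 CPM in unmarked and 0, 0 and 0 CPM in marked cells at day 60, and 1.11, 2.31 and 0.670 CPM in unmarked and 1.44, 0 and 2.06 CPM in marked cells at day 270. All 3 marked libraries of day 60 were at 0 reads against 21 reads in the unmarked ones. With a floor of 3 reads over the marked group, the unmarked level was 5.95 times that floor. This allows for counting error in the marked libraries only and takes the 21 reads as exact, so the fold may be smaller. In limma, whose value for such a gene depends on the added 0.5 CPM, the adjusted p was 0.888, and the authors' deposited table gives an FDR of 0.534. Optn passed the filter on low counts only through its day 270 libraries, of which 1 marked library was at 0 too.

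Sqstm1 was the member with the smallest p for time. It stood at 519.7, 476 and 457 CPM in unmarked and 469, 499.9 and 509 CPM in marked cells at day 60, and 623, 673 and 565 CPM in unmarked and 643, 584 and 717 CPM in marked cells at day 270. On the scaling by total reads all 6 libraries of day 270 were above all 6 of day 60, and within each day the populations overlapped. Within 1 population, 6.46% (marked) and 10.4% (unmarked) of all genes had this order. Divided by the TMM factors, marked library 1 of day 60 (factor 0.829) came above unmarked libraries 1 and 3 of day 270 (1.11 and 1.01). Day differs only between specimens, and the fit took both libraries of a specimen as independent, so the SE and interval here may be too narrow. The difference between days was 0.37 ± 0.10 (SE, 95% interval 0.16 to 0.59, adjusted p = 0.184), from 0.39 in marked and 0.36 in unmarked cells. It did not pass in limma, while DESeq2 (0.27, adjusted p = 0.0342) and limma with library weights (0.38, adjusted p = 0.0434) called it, with 1.12% and 0.913% of all genes. Without marked libraries 2 and 3 of day 270 it was 0.37 (adjusted p = 0.281). Marked and unmarked cells differed by 0.044 (95% interval -0.17 to 0.26). Sqstm1 shares 17.3% of its exon bases with Mrnip on the opposite strand, which had a mean of 1.39 CPM.

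The receptors of the outer mitochondrial membrane bind LC3 directly and mark mitochondria for removal. For Bnip3, Bnip3l and Fundc1, 0 of 3 passed, and the median for marking over both days was 0.020, which was 0.15 to 0.22 under TMM and the count models. Bnip3l (Nix), known for clearing mitochondria from maturing red cells, stood at 97.8, 94.9 and 76.04 CPM in unmarked and 101, 85.2 and 118 CPM in marked cells at day 60, and 103, 96.03 and 106 CPM in unmarked and 95.5, 83.4 and 81.2 CPM in marked cells at day 270. Marked cells were below unmarked ones in all libraries of day 270, with -0.23 ± 0.18 (SE, 95% interval -0.61 to 0.15, adjusted p = 0.59), and overlapped with them at day 60. The day 270 order holds on the scaling by total reads. Divided by the TMM factors, marked library 2 (0.828) came above unmarked libraries 1 and 2 (1.11 and 1.15). Bnip3, induced by hypoxia, stood at 4.56, 5.32 and 5.02 CPM in unmarked and 6.88, 6.19 and 10.6 CPM in marked cells at day 60, and 3.77, 9.53 and 7.30 CPM in unmarked and 13.4, 6.98 and 24.02 CPM in marked cells at day 270. Its marked libraries were above the unmarked ones at day 60 and overlapped at day 270, where marked library 3 was highest, 24.02 CPM. The difference over both days was 0.78 ± 0.36 (SE, 95% interval 0.026 to 1.53, adjusted p = 0.281), and an antisense gene covers 22.3% of the Bnip3 exon bases. Fundc1 had means of 58.4 and 70.9 CPM at day 60 and 67.2 and 61.3 CPM at day 270, and the lowest of its values, 30.5 CPM, was in marked library 2 of day 270.

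Day 270 was next compared with day 60. Day differs only between specimens, while the fit took both libraries of a specimen as independent. Intervals and p-values for time over both populations, here and above, may thus be too small. Over both populations limma called 0 of the 35 genes and 0.189% of all genes. At an unadjusted p under 0.05, Sqstm1 and Gabarapl1 were higher and 0 members lower, beside 8.53% of all genes. Optn is left out of this count, since the filter kept it only through its day 270 libraries. edgeR and limma-voom called 0, and DESeq2 called 1, Sqstm1, with 1.12% of all genes. The median of the 35 was 0.14, with 25 positive (Optn among them), beside 0.066 for all genes, and with TMM 0.028, with 18 positive, beside -0.041. In marked cells limma called 0 of 35 and 0.0315% of all genes, with 2 of 35 (5.71%) against 9.64% of all genes at an unadjusted p under 0.05, and in unmarked cells 0 of 35 and 0% of all genes, with 1 of 35 and 2.98% of all genes at an unadjusted p under 0.05. The other 3 tools called 0 of 35 in each of these contrasts. Library order was counted on the scaling by total reads. In marked cells 1 member had all day 270 libraries above day 60 (Sqstm1, against 6.46% of all genes) and 1 below (Atg2b, against 4.04%). In unmarked cells 4 were above (Atg3, Atg10, Gabarapl2 and Sqstm1, against 10.4%) and 0 below (against 2.39%). Optn had a mean of 0.286 CPM at day 60 and 1.26 CPM at day 270, given here as a description with no test, because the filter kept it through day 270.

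The second deposited comparison sets marked cells of day 270 against unmarked cells of day 60, so that marking and day differ together, and it shares libraries with the comparisons above. Here limma called 0 of the 35 and 1.54% of all genes, with 4 higher and 2 lower at an unadjusted p under 0.05, 17.1% against 14.4% of all genes. By library order, on the scaling by total reads, 4 were above (Atg101, Gabarapl1, Sqstm1 and Bnip3, against 6.56% of all genes) and 1 below (Atg2b, against 9.44%). Gabarapl1 was nearest to a call, at 43.4, 55.3 and 83.3 against 34.2, 29.6 and 21.8 CPM. The groups did not overlap, and the difference was 1.05 ± 0.27 (SE, 95% interval 0.48 to 1.62, adjusted p = 0.0621). edgeR (adjusted p = 0.039), DESeq2 (0.00337) and limma after TMM (0.029) called it, as did 1 of the 12 fits without a library, that without marked library 1 of day 270 (0.0217). Limma-voom gave 0.0514. Without marked libraries 2 and 3 of day 270 the difference of Gabarapl1 was 0.62 (adjusted p = 0.583). DESeq2 called 4 members in all, the others being Bnip3, Gabarap and Sqstm1. The share of all genes called here was 4.51% in DESeq2, 1.47% in edgeR and 2.6% in limma after TMM. Of the 35, Gabarapl1 is the 1 member in the authors' deposited table of 265 genes for this comparison, which lists FDR values up to 0.04998. That table gives it a log2 fold change of 1.02 and an FDR of 0.049. Erythroid markers summed to 179.7 to 788 CPM in these marked libraries against 37.3 to 62.9 CPM in the unmarked ones, and their part in the difference of Gabarapl1 was not tested.

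The members' differences were set beside the length of their exons. Over both days the median of all genes went from -0.076 for exon lengths under 2 kb, through -0.14, -0.21 and -0.24 in the classes of 2 to 4, 4 to 6 and 6 to 8 kb, to -0.29 from 8 kb up. The autophagy genes went from 0.17 (4 genes) and 0.044 (9 genes) in the shorter classes, through -0.16 (6) and -0.17 (8), to -0.34 (8). Of the 13 members under 4 kb 10 were positive, and of the 22 longer ones 2 were, on the scaling by total reads. Atg2a (7.69 kb) and Pik3c3 (4.47 kb) lay below the median of all genes in their length classes, at -0.92 against -0.24 and -0.62 against -0.21. Gabarapl1 (2.01 kb) and Bnip3 (2.27 kb) lay above, at 0.51 and 0.78 against -0.14. The part of length in the differences between roles was not tested, and role and length overlap: 4 of the 5 LC3 and GABARAP genes and 0 of the 6 PI3-kinase genes are under 4 kb.

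**Figure D4:**
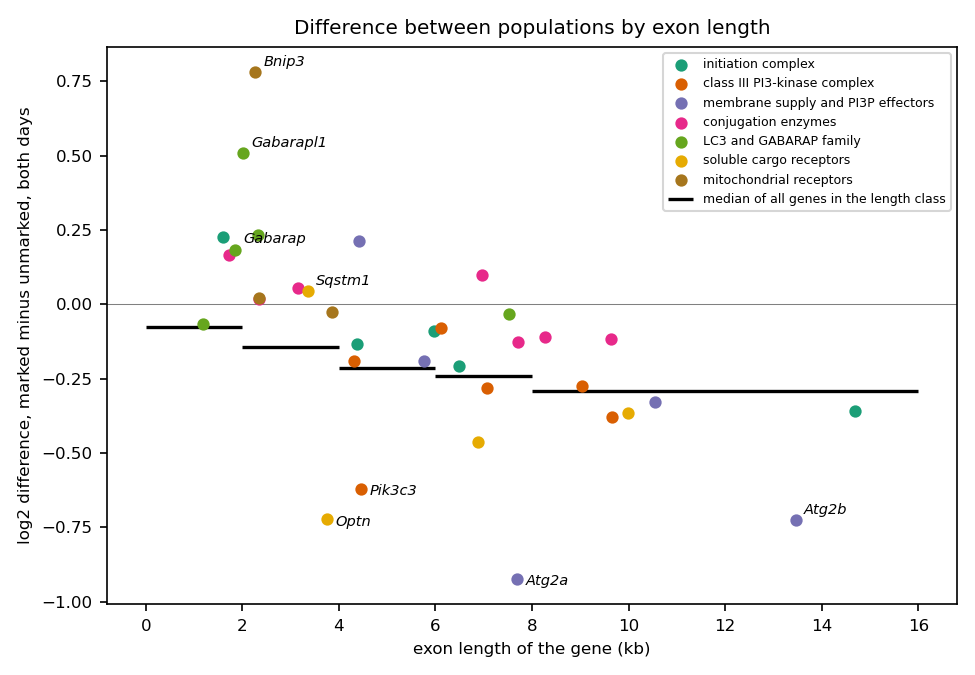
Log2 difference between marked and unmarked cells over both days for each autophagy gene against its exon length in kb, coloured by role, with black bars for the median of all genes in each length class. The bars fall from -0.076 to -0.29 with length, Atg2a, Pik3c3 and Atg2b lie furthest below them, apart from the sparsely counted Optn, and Gabarapl1 and Bnip3 above.

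Beyond the machinery, 72 of 74 listed genes of the wider pathway could be tested: further core genes, receptors for the endoplasmic reticulum, mitophagy genes, genes of fusion with the lysosome, and regulators around mTORC1, AMPK and the MiT/TFE and FoxO factors. For marking over both days limma called 0 of 72, with 3 higher and 9 lower at an unadjusted p under 0.05, 16.7% of them against 16.9% of all genes. The median was -0.13 with 26.4% positive, beside -0.18 and 29.6% for all genes. edgeR and limma after TMM called 0 as well, limma-voom called Vamp8, library weights called Calcoco1 and Flcn, and DESeq2 called 3 higher and 1 lower (Calcoco1, Ddrgk1, Sesn1 and Vamp8). All genes were called at 4.28% in DESeq2, 2.46% in limma-voom and 4.95% with library weights. The 24 regulators had the lowest median of these lists, -0.25, with 4 positive and 0 called. In marked day 270 against unmarked day 60 cells limma called 0 of 72, with 4 higher and 4 lower at an unadjusted p under 0.05, 11.1% of them against 14.4% of all genes, and a median of -0.061 beside -0.11. edgeR and limma-voom called 0 there, and DESeq2 called 2 higher and 1 lower (Mitf, Sesn1 and Ufl1), beside its 4.51% of all genes.

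RefSeq promoter windows were matched for 28 of the 35 genes, 30 windows in all. CACGTG, the core of the sites bound by basic helix-loop-helix factors such as the MiT/TFE family, is its own reverse complement and was found for 5 of 28 genes, in 5 of 30 windows, where 7.15% of all 32851 windows hold it. The 30 bases around each match are shown for these genes since they are the members that share the letters, with CACGTG in capitals, on GRCm38.p6 and 5′ to 3′ on the strand of the gene.
Atg14 (chr14:47568418-47568447, minus strand): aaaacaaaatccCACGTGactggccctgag
Atg3 (chr16:45158723-45158752, plus strand): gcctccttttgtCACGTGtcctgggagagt
Atg3 (chr16:45158746-45158775, plus strand): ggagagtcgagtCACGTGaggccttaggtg
Atg5 (chr10:44268313-44268342, plus strand): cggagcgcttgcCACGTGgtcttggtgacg
Atg7 (chr6:114670952-114670981, plus strand): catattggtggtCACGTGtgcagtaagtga
Bnip3 (chr7:138909597-138909626, minus strand): gcgcacgcgccgCACGTGccacacgctccc
Atg3 carries 2 matches. The 5 genes lie in different roles (Atg14 in the PI3-kinase complex, Atg3, Atg5 and Atg7 in conjugation, Bnip3 on mitochondria). Their differences over both days were -0.19, 0.053, 0.019, 0.098 and 0.78 in the same order, and 0 of 5 were called. TGACNNNGC, the core of the antioxidant response element, was in 4 windows, those of Atg13, Map1lc3b, Tax1bp1 and Ulk2, against 12.4% of all windows, and TGTTTAC, bound by FoxO factors, in 0 of 30 against 3.65%. A match is a run of letters and no measured site.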

How the data were processed

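RNA-seq was measured in 12 libraries, 3 in each of 4 groups, whose group and replicate come from the sample titles. RNeasy Micro kits were used for the RNA and a TruSeq RNA kit for the libraries, per the labels' protocols. The submitters' processing notes name the build GRCm38 and limma, with no version or role. For the aligner, the read counter, the annotation and the strand of counting, the sources used here give nothing. Per the file headers, 2 deposited tables give CPM per library (14219 and 265 genes), with log2 fold changes, p-values and FDR of the authors. A separate deposited table gives counts of 230 genes, which served as a check.

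CPM columns were turned back into reads with 1 total per library. Of 151342 values under 1000 reads, 100% were whole within 0.05 (largest deviation 0.00798), and 100% of the count table was matched. Totals were 7449468 to 15943547 reads over the genes of the table, which is less than the full depth. Floors cover counting error only, and only on the side at 0 reads.

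Genes were tested on log2(CPM + 0.5) with limma 3.58.1 and its trended prior (R 4.3.3), with 1 coefficient per group, 8 residual degrees of freedom, and Benjamini-Hochberg adjustment over the 12704 genes kept by filterByExpr of edgeR 4.0.16 (minimum count 10, 1515 removed). Genes were called at an adjusted p under 0.05, two-sided, and fold changes on this scale understate those of low genes. The scripts were tested on simulated data. Alternatives were edgeR's quasi-likelihood test, DESeq2 1.42.0 and limma-voom on the recovered reads, TMM scaling, pseudocounts of 0.1 and 2, other filters, a replicate block, library weights, only the compared libraries and leaving out each library. Exon lengths (the union of all annotated exons of a gene) and positions (14165 genes) are those of GENCODE M21. Of the genes given above as overlapping exons of a member, only Mrnip is among the 14219 genes listed. Promoter windows are those of RefSeq on GRCm38.p6.

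The members, lists and tests were chosen with earlier results of these data known. From the list of the wider pathway 1 gene is not reported here, and the counts of that list leave it out. Values are printed by library for members called in any contrast, the 3 members with the smallest p in the day 60, day 270 and both-day marking contrasts and in the time contrast, and Ulk1, Becn1, Atg5, Atg7, Map1lc3b, Gabarapl2, Sqstm1, Bnip3l, Bnip3 and Optn. Gabarap, Nbr1 and other members described beyond that rule were chosen for their role or after their values were seen. Residuals of libraries of 1 specimen correlated with a median of 0.0556 (range -0.0109 to 0.115, 6 pairs), those of other pairs with -0.0194 (range -0.104 to 0.0301, 12 pairs). Residuals from a mean of 3 libraries sum to 0 in each group. The second value thus largely follows from the first and is no separate check. The pairing comes from the specimen numbers in the labels.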

Additional observations from a re-analysis of the deposited data

How the results depend on the processing

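For marking over both days, where limma called 1 member (Atg2a), edgeR called 0, DESeq2 3 (Atg2a, Gabarap and Gabarapl1), limma-voom 2 (Atg2a and Gabarap) and library weights 2 (Atg2a and Atg2b). Leaving out each library in turn gave 0 to 1. Without marked libraries 2 and 3 of day 270 together, an alternative chosen after seeing the data, it was 0 (Atg2a at -0.83, adjusted p = 0.0836). At day 270 DESeq2 and library weights called 1 member each, and over time, both populations, 1 each. For marked day 270 against unmarked day 60 cells edgeR called 1, DESeq2 4, TMM scaling 1, and leaving out each library 0 to 1. For the 12 pairs of member and contrast that the naming rule gave, no sign reversed in the alternatives run. Those pairs were picked by their p in the same data, which favours a stable sign. Over all 35 members, 12 were positive for marking over both days in the main fit and 20 under TMM scaling. With the specimen as block the count over both days was 1 (Atg2a at -0.92, adjusted p = 0.043). No other member's call changed in the marking contrasts or in their difference between days. The time contrasts and marked day 270 against unmarked day 60 cells were blocked by replicate number, which also joins unrelated specimens of different days. No member's call changed there. Counts of all genes, which give the shares beside the members' counts, moved by more than 1.5 times. Leaving out 1 library gave 97 to 469 over both days against 234, 3 to 53 at day 60 against 24, 5 to 482 at day 270 against 61, 3 to 58 over time against 24, and 52 to 574 for marked day 270 against unmarked day 60 cells against 196. The highest of the both-day, day 270 and last counts came without marked library 1 of day 270. The other alternatives gave 171 to 629 over both days, 18 to 163 at day 60, 0 (only the compared libraries) to 256 (DESeq2) at day 270, 0 (without marked libraries 2 and 3 of day 270 together) to 142 over time and 7 to 573 for the last contrast. In marked cells over time limma called 4, DESeq2 121 and the fit without marked library 1 of day 270 161, and in unmarked cells over time limma called 0 and the fit with library weights 79. The cause was not tested. Of the member medians, those for marking were 0.015 (day 60), -0.019 (day 270) and 0.016 (both days) under TMM. The member with the least precise difference over both days was Optn, the gene with the fewest reads, with an SE of 0.49 and a 95% interval of -1.75 to 0.30.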
